A study of Homo sapiens with 4 samples.

Results

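Heat shock proteins and chaperonins are the cell's protein-folding machinery, and their mRNAs were followed here through a polysome profiling experiment in MDA-MB-231, a line derived from human breast cancer. Members were taken by name among the genes classed as mRNA: the HSPA, HSPB, HSP90, DNAJA, DNAJB and DNAJC families, HSPD1, HSPE1, HSPH1, TCP1 and the numbered CCT genes, without hyphenated read-through names. This gave 83 genes of the 28198 in the table. Of these, 60 had a mean of at least 1 FPKM (fragments per kilobase of transcript, scaled to the mapped fragments of its library) over the libraries, among 10905 genes that passed the same filter, and the counts below are over those genes.

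The study asked whether METTL3, the catalytic subunit of the mRNA m6A methyltransferase, changes translation when one of its lysines is replaced by glutamine, a mimic of acetylation (K177Q). Cells depleted of METTL3 were infected with lentivirus and reconstituted with wild-type METTL3 (METTL3-WT) or with the mutant (METTL3-K177Q), so both groups carry the depletion and an introduced METTL3, and the comparison holds no unmodified cells. All cells received 100 µg/mL cycloheximide for 5 min to hold ribosomes on mRNA, lysates were run on sucrose gradients, and the fractions were pooled into a sub-polysome fraction, with ribosomal subunits and monosomes, and a polysome fraction. The 4 poly(A)-selected libraries analysed here came from both fractions of both genotypes, all from replicate 2, so each condition had 1 library, no value has a replicate error and no difference was tested.

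From the lowest values in the table the depth was estimated at 24900000 to 26600000 fragments per library. In METTL3-WT cells METTL3 itself was at 9.39 FPKM in sub-polysomes and 38.7 in polysomes, and in METTL3-K177Q cells at 5.07 and 29.5, and these values do not separate endogenous from introduced transcripts. Of the markers of this mesenchymal, receptor-negative line, VIM, CD44, CAV1 and AXL were at 88.6 FPKM or more in every library, and ESR1, PGR and CDH1 at 0.632 or less. ERBB2 reached 28.3 FPKM and EPCAM 9.91, above the filter used here.

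Chaperones bind unfolded or partly folded proteins and keep them from aggregating. HSP70 proteins cycle between ATP and ADP under the control of J-domain partners (the DNAJ families) and of nucleotide exchange factors, among them the HSP110 proteins, and can pass clients on to HSP90. The chaperonins are barrels that enclose a client: TRiC, built from TCP1 and the CCT proteins, folds actin and tubulin in the cytosol, and HSPD1 with its lid HSPE1 works in the mitochondrial matrix. The endoplasmic reticulum has its own set, led by HSPA5 (BiP) and HSP90B1 (GRP94), and heat shock factor 1 raises many cytosolic members in response to protein damage.

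Chaperone mRNAs took a larger share of the polysome libraries than of the sub-polysome libraries. The 83 members together held 0.416% of all FPKM in METTL3-WT sub-polysomes and 0.892% in METTL3-WT polysomes, against 0.377% and 0.888% in the corresponding METTL3-K177Q libraries. The level was uneven among members: 16 had a mean of at least 100 FPKM, 41 of at least 10 FPKM, and the 10 highest held 68.2% of the summed mean. HSPB1, the small heat shock protein HSP27, had the highest mean (881 FPKM), followed by HSP90AB1, the constitutive cytosolic HSP90 (696), HSPE1 (410), CCT7 (381) and HSPA8, the constitutive cytosolic HSP70 (294). Since there is 1 library per condition, neighbours in that order could not be separated by a spread.

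The remaining 23 members had a mean under 1 FPKM. Of these, CCT8L2, DNAJB3, DNAJB7, DNAJB8, DNAJC5G, HSPB3 and HSPB9 were listed at 0 in every library, and CCT6B, DNAJA4, DNAJB13, DNAJC12, DNAJC22, DNAJC27, DNAJC28, DNAJC5B, HSPA12A, HSPA12B, HSPA1L, HSPA2, HSPA6, HSPB2, HSPB6 and HSPB7 had a value above 0 in at least 1 library. Several of these are known for tissue-restricted or strictly stress-induced expression, such as HSPA6. Nearest to the filter were HSPA2, at a mean of 0.97 FPKM, below it, and DNAJC6 (auxilin), at 1.31, above it.

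**Figure D1:**
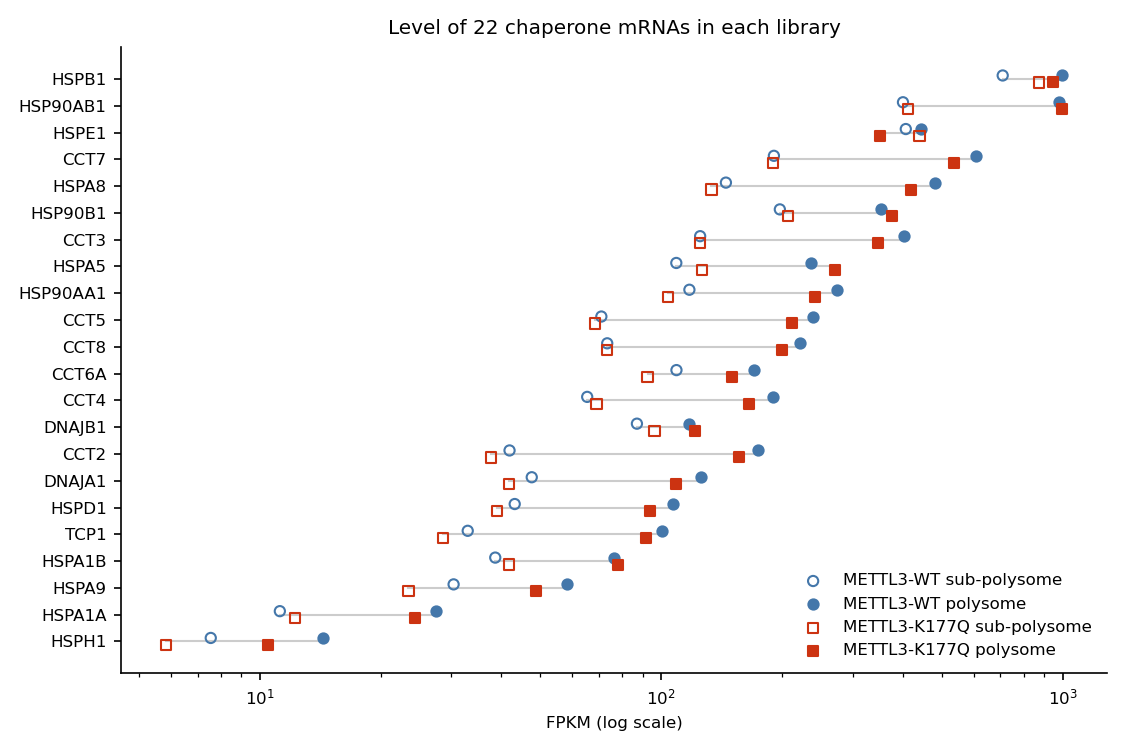
FPKM on a log axis of 22 chaperone mRNAs (rows, ordered by mean) in the 4 libraries, 1 point per library; circles are METTL3-WT, squares METTL3-K177Q, open points sub-polysome, filled points polysome, and the grey line spans the 4 values. In every row but that of HSPE1 both filled points lie to the right of both open points. The 22 were fixed by name and leave out members that lie the other way, such as DNAJC4 and DNAJC19. The share of all genes with such a separation was not computed.

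The first comparison set the polysome fraction against the sub-polysome fraction within each genotype, as log2 of the ratio of FPKM with 0.1 added to each value. Members lay towards polysomes in both. In METTL3-WT cells 30 of the 60 were at least 1.5-fold higher in polysomes and 4 at least 1.5-fold lower, where 28.1% of the genes at large passed upwards and 19.1% downwards. In METTL3-K177Q cells 33 were higher and 5 lower, beside 30.2% (3292) and 21.3% (2321) of all genes, a split that became 5483 and 1368 with the same total per library. The median log2 ratio of the members was 0.59 in METTL3-WT and 0.66 in METTL3-K177Q cells, against 0.14 and 0.16 over all genes. FPKM removes any change that all mRNAs of a library share, so these are positions relative to the other mRNAs, and in bulk libraries more cells holding an mRNA and more of it per cell cannot be told apart.

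Largely the same members passed in both genotypes: 29 were higher in polysomes in both, 3 were lower in both (DNAJC4, DNAJC19 and DNAJC24), and 0 passed in opposite directions. The share of all genes that passed in both genotypes was not computed, so this agreement cannot be set apart from that of genes at large. Those that passed in 1 genotype only were DNAJB14, DNAJB6, DNAJC11, DNAJC13, DNAJC2, DNAJC25, DNAJC7 and DNAJC8. DNAJC2 is described further on, and the other 7 had the same sign in both genotypes, with DNAJB6 for example at a log2 ratio of 0.53 in METTL3-WT and 0.60 in METTL3-K177Q cells.

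**Figure D2:**
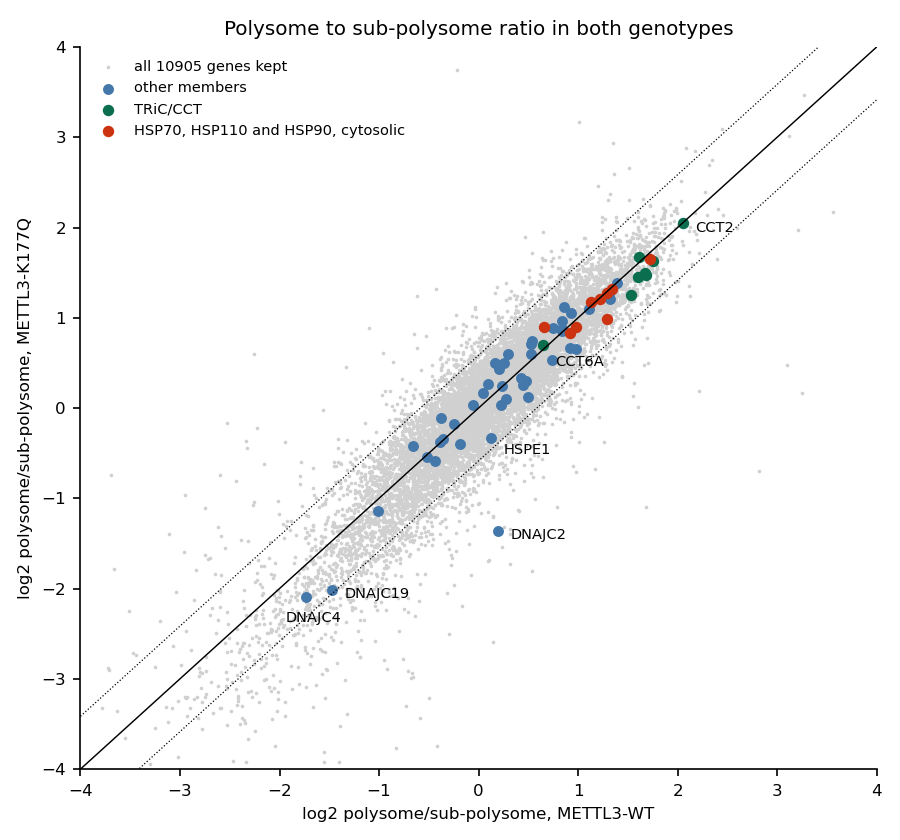
Log2 polysome to sub-polysome ratio of FPKM in METTL3-WT (x) against METTL3-K177Q cells (y), 1 point per gene that passed the filter (46 of these lie outside the axes); the solid line is equality and the dotted lines mark a 1.5-fold difference between genotypes. TRiC/CCT subunits sit at the upper right along the line, DNAJC4 and DNAJC19 at the lower left, and DNAJC2 is the member outside the dotted lines.

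The TRiC chaperonin stood at the polysome end. Its 8 subunits that passed the filter were all higher in polysomes in METTL3-WT cells (median log2 ratio 1.64, from 0.64 to 2.05) and in METTL3-K177Q cells (median 1.48, from 0.70 to 2.05). CCT2 was at 41.9 FPKM in METTL3-WT sub-polysomes, 174 in METTL3-WT polysomes, 37.7 in METTL3-K177Q sub-polysomes and 156 in METTL3-K177Q polysomes. Both polysome values were thus about 4.15-fold and 4.13-fold above the sub-polysome value of the same genotype, and 99.7% and 99.4% of all genes had a smaller ratio. CCT7, the most abundant subunit, was at 191, 608, 190 and 536 FPKM in the same order of libraries, which is kept in every series of 4 values, and TCP1, the least abundant, at 33, 101, 28.6 and 91.6. The polysome and sub-polysome values did not overlap for either gene, and the share of all genes without such overlap was not computed.

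CCT6A was the exception within the complex. It was at 109, 171, 92.5 and 150 FPKM, with log2 ratios of 0.64 in METTL3-WT and 0.70 in METTL3-K177Q cells, and 74.2% and 74.7% of all genes had a smaller ratio. Without it, a choice made after seeing the values, the other 7 subunits spanned 1.53 (CCT4) to 2.05 in METTL3-WT and 1.26 (CCT4) to 2.05 in METTL3-K177Q cells. CCT3 (125, 403, 125 and 348 FPKM), CCT5 (71, 239, 68.6 and 212) and CCT8 (73.4, 222, 73.3 and 200) lay between CCT4 (65.4, 189, 69 and 165) and CCT2 in ratio in both genotypes. CCT6B, a testis-enriched paralog of CCT6A, was under the filter at a mean of 0.703 FPKM.

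Subunits of TRiC are present in equal number in the assembled ring, but their mRNAs were not level. The ratio of the most to the least abundant, CCT7 over TCP1 in each library, was 5.79 and 6.05 in METTL3-WT sub-polysome and polysome libraries and 6.64 and 5.85 in those of METTL3-K177Q. Summed over the 8 subunits, FPKM was 710 and 2107 in METTL3-WT and 685 and 1859 in METTL3-K177Q cells. TRiC subunits have coding sequences of 1593 to 1668 bases, and 255 other genes fell in that range. Their median log2 ratio was 0.27 in METTL3-WT and 0.38 in METTL3-K177Q cells, and 5 (1.96%) and 6 (2.35%) of them were at or above the median of TRiC.

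The cytosolic HSP70, HSP110 and HSP90 members that passed the filter were also all at least 1.5-fold higher in polysomes in both genotypes. Of all genes, 28.1% were in METTL3-WT and 30.2% in METTL3-K177Q cells. Of the 9 cytosolic and nuclear HSP70 genes, 4 passed the filter. HSPA8, which takes part in folding of nascent chains and in clathrin uncoating, was at 145 FPKM in METTL3-WT sub-polysomes, 480 in METTL3-WT polysomes, 133 in METTL3-K177Q sub-polysomes and 419 in METTL3-K177Q polysomes. Its polysome values were 3.31-fold and 3.13-fold the sub-polysome values, and it was the member outside TRiC with the highest ratio in both genotypes. HSPA14, a ribosome-associated HSP70, was at 8.74, 22.3, 6.53 and 16.5 FPKM, with log2 ratios of 1.34 and 1.32. These ratios were alike in both genotypes, while both METTL3-K177Q values lay below the METTL3-WT value of the same fraction.

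HSPA1A and HSPA1B are the stress-induced HSP70 pair and encode nearly the same protein. HSPA1A was at 11.2, 27.5, 12.2 and 24.4 FPKM and HSPA1B at 38.6, 76.2, 41.7 and 78.1. They share 75.1% and 71.6% of their 50-base stretches with each other, so the split of reads between them is uncertain. Their sum, taken after this was seen, was 49.8, 104, 53.9 and 103 FPKM, which gives log2 ratios of 1.06 in METTL3-WT and 0.93 in METTL3-K177Q cells.

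Among HSP110 proteins, the exchange factors of HSP70, HSPH1 was at 7.55, 14.4, 5.84 and 10.5 FPKM with log2 ratios of 0.92 and 0.83. HSPA4 (15.5, 34.1, 14.3 and 32.4 FPKM) had ratios of 1.13 and 1.17, and HSPA4L (3.14, 5, 2.01 and 3.83) of 0.66 and 0.90. All 3 were higher in polysomes in both genotypes.

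Of the cytosolic HSP90 pair, HSP90AB1 was at 400 and 978 FPKM in METTL3-WT and 412 and 994 in METTL3-K177Q cells, and the stress-inducible HSP90AA1 at 118 and 275, and 104 and 242. Polysome values were 2.44-fold and 2.41-fold the sub-polysome values for HSP90AB1, and 2.34-fold and 2.32-fold for HSP90AA1. The paralogs thus had close ratios, while HSP90AB1 was between 3.4 and 4.12 times as abundant per length in the 4 libraries.

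Small heat shock proteins are ATP-independent holdases, and 3 genes of that list passed the filter. Of these 3, 0 were 1.5-fold higher in polysomes in either genotype, beside 28.1% of all genes in METTL3-WT and 30.2% in METTL3-K177Q cells. All 3 had log2 ratios above 0 in both genotypes. Their medians were 0.23 and 0.12, near the 0.14 and 0.16 of all genes. HSPB1 was at 709 FPKM in METTL3-WT sub-polysomes, 998 in METTL3-WT polysomes, 872 in METTL3-K177Q sub-polysomes and 946 in METTL3-K177Q polysomes. Its log2 ratio was 0.49 in METTL3-WT and 0.12 in METTL3-K177Q cells. HSPB8, a partner of BAG3 in selective autophagy, was at 8.93, 9.18, 11.2 and 12.6 FPKM, with ratios of 0.04 and 0.16. HSPB11 (IFT25), a subunit of the intraflagellar transport machinery rather than a typical chaperone, was at 89.1, 104, 92.7 and 94.7 FPKM.

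Endoplasmic reticulum members were divided. HSPA5, HSP90B1, DNAJB11 and DNAJC1 were higher in polysomes in both genotypes, and 5 of the 9 were not. Of all genes, 28.1% were higher in METTL3-WT and 30.2% in METTL3-K177Q cells. The median log2 ratios of the 9 were 0.24 and 0.43, against 0.14 and 0.16 over all genes. HSPA5 was at 109, 236, 127 and 271 FPKM (log2 ratios 1.11 and 1.10), and HSP90B1 at 198, 353, 207 and 375 (0.84 and 0.85). In both genes the polysome values lay above both sub-polysome values, and each METTL3-K177Q value lay above the METTL3-WT value of the same fraction. The share of all genes with such an order was not computed. DNAJB9, a repressor of the stress sensor IRE1, was at 8.85, 10.4, 10.2 and 12.1 FPKM (0.24 and 0.25). HSPA13, a microsomal HSP70-like ATPase, was at 11.6, 13.5, 10.5 and 14.1 FPKM (0.21 and 0.43). DNAJC25 was lower in polysomes in METTL3-K177Q cells (log2 ratio -0.59), and at -0.43 in METTL3-WT cells.

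The mitochondrial members were spread over both fractions. HSPA9, the matrix HSP70 mortalin, was at 30.4, 58.1, 23.5 and 48.8 FPKM, with log2 ratios of 0.93 and 1.05. HSPD1, the barrel of the mitochondrial chaperonin, was at 43.2, 107, 38.9 and 93.7 FPKM, with ratios of 1.31 and 1.26. Its lid HSPE1 was at 407, 445, 440 and 350 FPKM, with ratios of 0.13 and -0.33. HSPD1 was therefore on the polysome side in both genotypes and HSPE1 was not past 1.5-fold in either.

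HSPD1 and HSPE1 are neighbours on chromosome 2 that are read in opposite directions from a shared interval. In RefSeq (GRCh38.p14) the HSPE1 start, at position 197500379, lies 105 bases from an HSPD1 start at 197500274 and 539 bases from another at 197499840. The ratio of HSPE1 to HSPD1, both per length, was 9.42 in METTL3-WT and 11.3 in METTL3-K177Q sub-polysomes, and 4.15 and 3.74 in the polysome libraries. The coding sequence is 306 bases in HSPE1 and 1719 in HSPD1. Of the 50-base stretches of HSPE1, 48.2% also occur in transcripts of other genes, and of those of HSPD1 27.1%. Over 10% were shared in 15 of the 60 members. The read-through HSPE1-MOB4 was at 0.265 FPKM or less in every library. All 557 bases of the HSPE1 transcript lie within the annotated span of HSPD1 on the opposite strand, and the part of HSPD1 reads in the values of HSPE1 was not tested.

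DNAJC19, a J-domain protein of the mitochondrial inner membrane, was the clearest sub-polysome member of this compartment. It was at 38.4 FPKM in METTL3-WT sub-polysomes, 13.8 in METTL3-WT polysomes, 44.2 in METTL3-K177Q sub-polysomes and 10.8 in METTL3-K177Q polysomes. Sub-polysome values were 2.78-fold and 4.05-fold the polysome values. Its coding sequence is 348 bases.

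The J-domain proteins of types A and B outside the other lists, most of them cytosolic partners that deliver clients to HSP70, were closer to the middle. Of 9, 2 were higher in polysomes in METTL3-WT cells (DNAJA1 and DNAJA2) and 3 in METTL3-K177Q cells (also DNAJB6). These counts are near the share of all genes, 28.1% and 30.2%. DNAJB14 was lower in METTL3-WT cells. DNAJA1 was at 47.6, 125, 41.8 and 109 FPKM, with log2 ratios of 1.39 and 1.38. DNAJB1, the main stress-inducible partner of HSP70, was at 87, 117, 96.3 and 122 FPKM, with ratios of 0.43 and 0.34. DNAJB12, which like DNAJB14 is anchored in the endoplasmic reticulum membrane but was listed here with type B, was at 17.1, 19.2, 15.4 and 21.8 FPKM, with ratios of 0.17 and 0.50.

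Type C J-domain proteins share the J domain and little else. Of the 5 with ribosomal, spliceosomal or chromatin roles, DNAJC17 was higher in polysomes in METTL3-WT cells, DNAJC17 and DNAJC8 in METTL3-K177Q cells, and DNAJC2 was lower in METTL3-K177Q cells. DNAJC9, a histone chaperone, was at 29.8, 41.5, 24.2 and 29.8 FPKM (log2 ratios 0.48 and 0.30). Of the 5 with vesicle or other roles, DNAJC5 and DNAJC7 were higher in METTL3-WT cells and DNAJC5 and DNAJC13 in METTL3-K177Q cells. Of all genes, 28.1% and 30.2% were higher. DNAJC5, the synaptic vesicle protein CSP alpha, was at 23.7, 43.2, 21 and 45.7 FPKM (0.86 and 1.12).

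In the 4 members that were in no group, 2 were lower in polysomes in both genotypes, where 19.1% of all genes were lower in METTL3-WT and 21.3% in METTL3-K177Q cells. DNAJC4 was at 28.1, 8.39, 36.1 and 8.38 FPKM, so that the sub-polysome values were 3.32-fold and 4.27-fold the polysome values, the lowest ratio of any member above 10 FPKM in METTL3-WT cells. Only 3.14% of all genes in METTL3-WT and 3.36% in METTL3-K177Q cells had a smaller ratio. DNAJC24, which acts in diphthamide synthesis on elongation factor 2, was at 4.87, 2.37, 4.92 and 2.17 FPKM.

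Position on the gradient went with coding length among the members, as it did over all genes. The Spearman correlation of the log2 ratio with coding length was 0.36 in METTL3-WT and 0.42 in METTL3-K177Q cells over the 60 members, and 0.23 and 0.39 over 10376 genes with a coding length. These are correlations across genes that share the same 4 libraries, and genes are not independent replicates. Of the 31 members with a coding length of at least 1500 bases, 22 (71%) were higher in polysomes in METTL3-WT and 24 (77.4%) in METTL3-K177Q cells, against 34.5% and 42.9% of the 4374 genes of that length. Of the 22 members from 600 to under 1500 bases, 7 (31.8%) and 8 (36.4%) were higher, close to the 29.7% and 28.1% of the 4509 genes of that length. Of the 7 members under 600 bases, 1 (14.3%) was higher in each genotype, DNAJC5, against 13.5% and 8.31% of 1493 genes. The length limits were chosen after the values were seen.

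**Figure D3:**
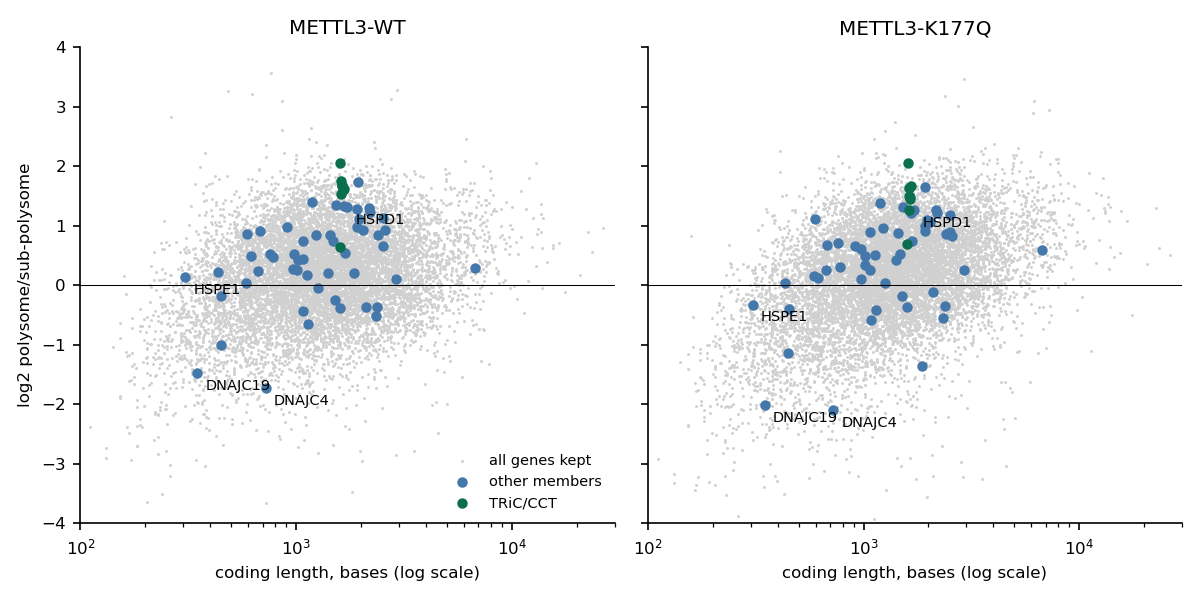
Log2 polysome to sub-polysome ratio against coding length in bases (log axis) in METTL3-WT (left) and METTL3-K177Q cells (right), 1 point per gene (5 and 10 genes lie outside the axes). TRiC/CCT subunits, of 1593 to 1668 bases, lie at the upper edge of the cloud at their length except CCT6A, and HSPE1 and DNAJC19 lie at the short end.

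The second comparison asked whether translation efficiency, the polysome to sub-polysome ratio, differed between METTL3-K177Q and METTL3-WT cells. It uses the same libraries as the first. With METTL3-K177Q, 0 of the 60 members had an efficiency higher by 1.5-fold or more and 1, DNAJC2, had a lower one, where 4.08% of all genes were higher (445) and 7.03% lower (767). Rescaled to the same total per library, 2 members were higher and 1 lower, and the split over all genes turned to 1990 higher and 289 lower. With equal totals outside the ribosomal protein genes it was 1521 and 344. The members' median log2 difference was -0.02, against -0.01 over all genes. Counting error alone gave the difference a standard error of at most 0.27 on the log2 scale among the members, and how much 2 libraries of 1 condition would differ is not known from these data.

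DNAJC2, also called MPP11 or zuotin-related factor, works with HSPA14 in the ribosome-associated complex. It was at 2.2 FPKM in METTL3-WT sub-polysomes, 2.54 in METTL3-WT polysomes, 3.12 in METTL3-K177Q sub-polysomes and 1.16 in METTL3-K177Q polysomes. The METTL3-K177Q values were thus the highest and the lowest of the 4, with log2 ratios of 0.20 in METTL3-WT and -1.36 in METTL3-K177Q cells and a difference of -1.56 (counting standard error 0.27). The lowest value rests on about 69.7 fragments, the fewest of any of the 60 members. Exons of DNAJC2 lie inside 2 genes on the opposite strand of chromosome 7, over 1815 bases in PMPCB (4.81, 13, 4.62 and 11.8 FPKM) and 476 bases in PSMC2 (19.6, 62.6, 18.6 and 60.7 FPKM). Whether counting used the strand is not stated in the sources used here, and the part of these genes in the value of DNAJC2 was not tested. Of the 60 members, 20 have exons inside another gene on the opposite strand, among them HSPE1, CCT4, CCT5 and DNAJC4, and 12 on the same strand. The share over all genes was not computed. HSPA14, the partner of DNAJC2, differed by -0.02.

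Among members averaging 10 FPKM or more, the lowest differences were those of DNAJC19 (-0.54), HSPE1 (-0.46) and HSPB1 (-0.37), with counting standard errors of 0.11, 0.038 and 0.022. The highest were DNAJB12 (0.33), DNAJC5 (0.25) and HSPA13 (0.22), with errors of 0.078, 0.045 and 0.081. Each of these 6 was within 1.5-fold. Across all genes the difference went with coding length (Spearman correlation 0.46 over 10376 genes, and 0.28 over the members).

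The large chaperones were close to 0. HSP90AA1 differed by -0.01, HSP90AB1 by -0.02, HSP90B1 by 0.02, HSPA5 by -0.01, HSPD1 by -0.05, HSPA8 by -0.08, HSPH1 by -0.09 and HSPA9 by 0.12. HSPA1A was at -0.30 and HSPA1B at -0.08, and their sum at -0.13. DNAJA1 and DNAJB1 were at -0.01 and -0.09.

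TRiC had a median difference of -0.14, with CCT4 (-0.28) and CCT3 (-0.21) lowest and CCT6A (0.05) and TCP1 (0.07) highest. The sign of such small values depends on how the libraries are scaled. With each library rescaled to the same total, the all-gene median moved by 0.30, and the medians of all 10 member groups were above 0, TRiC at 0.16. With equal totals outside the ribosomal protein genes it moved by 0.24, and TRiC was at 0.10.

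**Figure D4:**
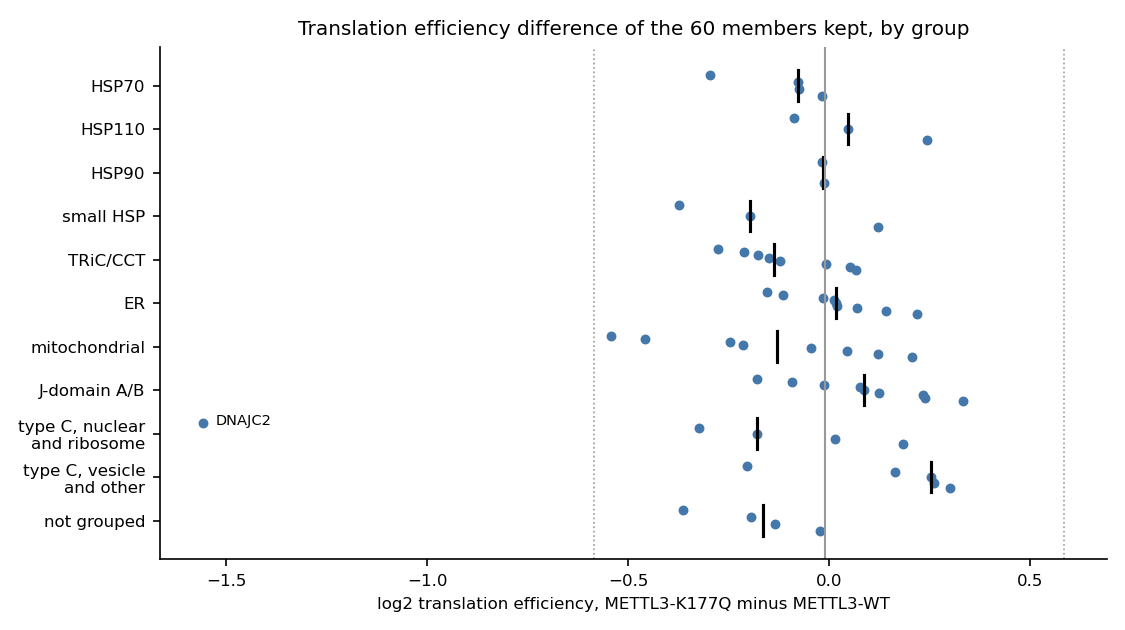
Difference in log2 translation efficiency, METTL3-K177Q minus METTL3-WT, of each of the 60 members by group (1 point per gene); black bars are group medians, the grey line is the median of all genes and the dotted lines mark 1.5-fold. DNAJC2 at -1.56 is the point past a dotted line.

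Within each fraction the genotypes were also near each other. In polysomes 0 members passed 1.5-fold upwards with METTL3-K177Q and 1 downwards (DNAJC2, log2 -1.07), where 2.13% of all genes were higher and 3.13% lower. In the sub-polysome fraction 0 were higher and 1 was lower (HSPA4L, log2 -0.62), where 4.01% of all genes were higher and 2.94% lower. The members' median was -0.07 in polysomes and -0.03 in the sub-polysome fraction, against -0.02 and 0.00 over all genes. These splits over all genes, 232 higher and 341 lower in polysomes and 437 and 321 in sub-polysomes, became 363 and 242, and 198 and 1046, with the same total per library.

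In polysomes, TRiC and most endoplasmic reticulum members lay on opposite sides of 0. All 8 TRiC subunits were below 0 in METTL3-K177Q against METTL3-WT polysomes, in a narrow range from -0.21 to -0.14. Over all genes 5856 of 10905 were below 0, with a standard deviation of 0.34. For TRiC the sign held under each of the 3 other scalings. Of the 9 endoplasmic reticulum members 7 were above 0, with a median of 0.09, beside 46.2% of all genes above 0. HSPA5 (0.20) and DNAJB9 (0.21) were among the 3 highest members above 10 FPKM. None of these passed 1.5-fold. In the sub-polysome fraction HSPA5 was at 0.22 and DNAJB9 at 0.20, while the median of the group was 0.08 and turned to -0.12 with libraries rescaled to the same total or to equal totals outside the ribosomal protein genes.

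HSPB8 was the highest member above 10 FPKM in polysomes (0.45) and at 0.33 in the sub-polysome fraction, where DNAJC4 (0.36) and HSPB1 (0.30) were the other highest. DNAJC9 (-0.48 in polysomes, -0.30 in the sub-polysome fraction) and HSPA14 (-0.43 and -0.42) were low in both, as were HSPH1 (-0.45 and -0.36), just under 10 FPKM on average, and HSPA9 (-0.25 and -0.37). HSPE1 was at -0.35 in polysomes and 0.11 in the sub-polysome fraction.

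The proteins that work with the members were taken from 4 further lists of 45 genes, all of which passed the filter. In METTL3-WT cells 24 were 1.5-fold higher in polysomes and 3 lower, and in METTL3-K177Q cells 25 were higher and 5 lower, beside the 28.1% and 19.1%, and 30.2% and 21.3%, of all genes given above. Of the 20 co-chaperones of HSP90 and HSP70, 14 were higher in METTL3-WT and 13 in METTL3-K177Q cells, with medians of 0.95 and 1.07. Of the 9 prefoldin genes and TRiC partners, which hand clients to TRiC or assist it, 3 and 4 were higher, near the share of all genes, with medians of 0.51 and 0.38 against 1.64 and 1.48 in TRiC. In translation efficiency 0 of the 45 passed upwards and 1 downwards, HSCB (10.6, 6.96, 12.7 and 5.55 FPKM, log2 difference -0.59), a J-domain protein of mitochondrial iron-sulfur cluster assembly, where 4.08% of all genes were higher and 7.03% lower.

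Of the 13 organelle chaperones and partners, 12 were above 0 in METTL3-K177Q against METTL3-WT in the sub-polysome fraction and 8 in polysomes. Over all genes 49.4% and 46.2% were above 0. The medians of the 13 were 0.17 and 0.15, and 0 passed 1.5-fold. With libraries rescaled to the same total or to equal totals outside the ribosomal protein genes, the sub-polysome median turned to -0.03. Only 5 of the 13 were then above 0 in that fraction. Of the 3 heat shock factors, HSF1 was within 0.15 of 0 in both fractions (92.4, 88.9, 83.2 and 81.9 FPKM), and HSF4 was lower in both (1.87, 1.39, 0.806 and 0.574 FPKM).

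Heat shock factors bind repeats of GAA in alternating orientation. The 250 bases before each RefSeq start of a gene were searched for 3 units that alternate between GAA and TTC with 2 bases between them, on both strands, a search chosen after the expression values were seen. Of 74 members with a promoter sequence 6 held it (8.11%), DNAJB6, HSP90AA1, HSP90AB1, HSPA6, HSPA8 and HSPD1, against 152 of 27305 genes (0.557%). Among those that passed the expression filter it was 5 of 56 members (8.93%) and 34 of 8754 genes (0.388%). The matches are shown since they are a sequence feature that few other promoters hold. They are written 5′ to 3′ on the strand of the gene (GRCh38.p14), with the matched units and the bases between them in capitals, and those that overlap an annotated exon are limited to 30 bases.
DNAJB6, chr7:157336849-157336908, plus strand: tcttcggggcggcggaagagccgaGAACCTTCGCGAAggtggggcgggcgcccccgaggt
HSP90AA1, chr14:102087097-102087156, minus strand: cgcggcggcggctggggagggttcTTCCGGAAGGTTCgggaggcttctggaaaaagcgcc
HSP90AB1, chr6:44247778-44247843, plus strand: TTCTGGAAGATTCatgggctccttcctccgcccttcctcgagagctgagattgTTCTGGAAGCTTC
HSPA6, chr1:161524442-161524501, plus strand: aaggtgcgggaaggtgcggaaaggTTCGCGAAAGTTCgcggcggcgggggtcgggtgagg
HSPA8, distal, chr11:123062346-123062375, minus strand: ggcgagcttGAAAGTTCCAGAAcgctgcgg
HSPA8, proximal, chr11:123062171-123062200, minus strand: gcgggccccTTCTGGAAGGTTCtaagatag
HSPD1, chr2:197500061-197500090, minus strand: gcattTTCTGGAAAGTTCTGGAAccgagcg

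The match in HSPD1 lies between the annotated HSPD1 starts, before that at 197499840, and joins 4 units. HSP90AB1 and HSPA8 hold a pair of matches each. Those in HSP90AB1 precede a RefSeq start that lies downstream of the start of its canonical transcript at 44247101, so they are within the annotated gene, and in HSPA8 the proximal match ends 43 bases before the start. The 5 members with a match that passed the filter spanned a wide range of level, from HSPD1 at a mean of 70.7 FPKM to HSP90AB1 at 696. Their log2 ratio of polysome to sub-polysome had a median of 1.29 in METTL3-WT and 1.26 in METTL3-K177Q cells. All but DNAJB6 have at least 1500 coding bases, and members of that length had medians of 1.11 and 1.05. The translation efficiency of the 5 had a median difference of -0.02 between genotypes. The stress-induced HSPA1A, HSPA1B and DNAJB1 held no match in this search. A match is only a run of letters and says nothing about binding.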

How the data were processed

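MDA-MB-231 polysome profiling was analysed in 4 poly(A)-selected, strand-directional libraries, 1 per condition. The authors deposited a table of FPKM per gene, and the submitters' processing notes name STAR 2.7, StringTie 2.1.5 and hg38, with no role or order. Of its columns, 4 hold values of samples that are not listed, and these stayed out of every step. The members and lists were chosen with earlier results of these data known. Ratios were computed as log2(FPKM + 0.1), genes were kept from a mean of 1 FPKM upwards, and a gene was counted at 1.5-fold. This log scale understates changes of low genes. No test was possible with 1 library per condition.

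The named members were 22 fixed by name, members past 1.5-fold in translation efficiency, and, above a mean of 10 FPKM, the 3 highest and 3 lowest in translation efficiency, in the METTL3-WT ratio and in each fraction. HSPA4L, DNAJC24 and other members outside that rule were chosen after their values were seen. FPKM times transcript length clusters at its lowest values, taken as 1 fragment (log10 from -1.6 to -1.3, limits chosen after seeing the values), which gave the approximate depth. Errors derived from it are of counting alone. Coding lengths (without stop codon), overlaps and shared 50-base stretches come from canonical transcripts of GENCODE 44 (all 83 members matched), and promoters from RefSeq on GRCh38.p14. Scaling, pseudocount, filter, threshold and gene-set alternatives were run. The calculation was also run on simulated counts with known changes. Those counts held counting error alone, so they say nothing about how libraries of 1 condition vary or how reliable the 1.5-fold counts are. Python 3.11.15, pandas 2.3.3, numpy 2.4.6, scipy 1.17.1 and matplotlib 3.10.9 were used.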

Additional observations from a re-analysis of the deposited data

Results flagged for a closer look

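HSPE1 was on opposite sides of equality in the 2 genotypes, with a log2 polysome to sub-polysome ratio of 0.13 in METTL3-WT and -0.33 in METTL3-K177Q cells, each beyond 1.96 counting standard errors, and a difference of -0.46. With 1 library per condition the difference was not tested. The HSPE1 transcript lies within the span of HSPD1 on the opposite strand, and the part of HSPD1 reads was not tested. With libraries rescaled to the same total the METTL3-K177Q ratio was 0.10, so that both were above 0, and the difference was -0.16. With each library scaled by its median ratio to the mean of the libraries, the METTL3-WT ratio was 0.04. That is within 1.96 counting standard errors of 0 (standard error 0.026). HSPE1 has 306 coding bases, and all genes under 600 bases had medians of -0.30 in METTL3-WT and -0.55 in METTL3-K177Q cells. DNAJB5 (-0.05 and 0.04) and DNAJC2 (0.20 and -1.36) also changed sign, but at least 1 of their ratios was within counting error of 0.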

How the results depend on the processing

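No paired analysis was possible because each condition has 1 library. Of 180 summary values of the members under 9 alternatives, 157 stayed within 1.5 times the count or within the 95% binomial interval of the median. The other 23 moved. That interval is over genes, which are not independent replicates, and does not measure the spread between libraries. A reversal was looked for only in medians at least 1.5-fold from equality, and 0 of those reversed. Smaller medians did change sign, as between genotypes in polysomes, from -0.07 to 0.02 with libraries rescaled to the same total. Of 858 values of the named genes, 36 had the opposite sign. Rescaling to TPM moved the all-gene median of translation efficiency by 0.30 and of the METTL3-K177Q ratio by 0.43. The members' medians were then 0.28 in translation efficiency (2 higher), 1.09 in the METTL3-K177Q ratio and -0.24 between genotypes in the sub-polysome fraction (2 lower). Equal totals outside 86 ribosomal protein genes gave 0.22 in translation efficiency and -0.23 in the sub-polysome fraction (2 lower). Each scaling applies the same factor to every gene of a library, so members and all genes shift together. Apart from the pseudocount, the members' medians relative to all genes therefore could not change. That they stayed within their intervals under each scaling is no evidence of stability. These relative medians are among the 180 summary values. Without a filter, 1 member was higher and 8 lower in translation efficiency, 9 lower in the METTL3-K177Q ratio, 5 lower between genotypes in polysomes, and 4 higher and 4 lower in the sub-polysome fraction, since the genes added are those under 1 FPKM. With a minimum mean of 5 FPKM, 0 members were lower in translation efficiency or between genotypes in either fraction, and 2 in each polysome to sub-polysome ratio. DNAJC2 and HSPA4L have lower means. At 2-fold 17 members were higher in the METTL3-WT and 18 in the METTL3-K177Q ratio, and 0 lower in the sub-polysome fraction, as with a pseudocount of 1. Depth limits DNAJC2 most, at about 69.7 fragments in its lowest library. Why the scalings differ was not tested.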
